A study of Mus musculus with 8 samples.

Results

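The 10 genes described here surround the translation initiation factor eIF2, and were followed in mouse liver: the genes of its 3 subunits, the 5 subunit genes of its exchange factor eIF2B, and Eif2a and Eif2d, which encode separate initiation factors and no subunit of either complex. They were chosen by gene symbol, as 10 of the 56077 rows of the deposited count table. All 10 passed the filter on low counts. The mice were C57BL/6 animals, 6 months old, lean, fed ad libitum and killed at 6:30 in the morning. There were 4 control animals labelled wild type and 4 labelled eIF2α flox/+ in the title and Eif2a flox/+ in the genotype field, here called heterozygous. The series title and design text call the flox/+ mice heterozygous for eIF2α. The labels name no recombinase, floxed exon, sex, litter or number of founders, and the growth protocol uses the word wild-type for all the mice. Total RNA of each liver was depleted of ribosomal RNA and sequenced. The symbol Eif2a in the genotype field is that of another gene, and eIF2α itself is encoded by Eif2s1.

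The factor eIF2 is a complex of an α, a β and a γ subunit that carries the initiator tRNA, with GTP, to the small ribosomal subunit. When the start codon is found the GTP is hydrolysed, and eIF2B recharges eIF2 by exchanging GDP for GTP. Stress kinases phosphorylate a serine of the α subunit, which turns eIF2 into an inhibitor of eIF2B and slows protein synthesis. In liver this step links amino acid supply, viral infection and secretory load to the rate of translation.

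The coding stretch around that serine is shown because it marks the α subunit as the regulated one, and tells Eif2s1 apart from the Eif2a of the genotype label. The serine codon is in capitals. It is codon 52 from the start codon, numbered 51 in the usual count without the initiator methionine, and lies in exon 2 of Eif2s1 at chr12:78866680-78866682 on the plus strand of GRCm38.
Eif2s1: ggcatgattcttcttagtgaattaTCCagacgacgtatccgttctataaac
The coding sequences of Eif2s1 and Eif2a translate to 315 and 581 residues, and 12.4% of the columns of their global alignment were identical.

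The names W32, W33, W76 and W90 stand for the wild-type libraries. H11, H12, H15 and H75 stand for the heterozygous ones, as the column headers have it. The libraries held 22177979 to 28564357 counts, and the 10 genes had 145 to 2493 counts in a library. Hepatocyte markers summed to 73990 to 105200 CPM (counts in a library per 1e+06 of its total), and Eif2s3y, on the Y chromosome, had 636 to 1223 counts in every library, against 0 to 11 for Xist. Summed markers of Kupffer cells, sinusoidal endothelium, stellate cells and bile duct cells overlapped between the groups. The heterozygous mean was higher for 3 of 5, 4 of 5, 0 of 5 and 5 of 5 of these markers, in that order. Neutrophil markers were at 0.741 to 2.01 CPM in wild-type and 1.35 to 5.71 CPM in heterozygous libraries, with a higher heterozygous mean for 5 of 5. The 4 adipocyte markers summed to 6.44 to 13.7 CPM in wild-type and 2.53 to 6.37 CPM in heterozygous libraries. Of these 4 markers 1 had a higher heterozygous mean, and none had non-overlapping groups by itself. Adipoq had at most 2 counts and Lep was at 0 in every library. The part of these cell types in any difference given here was not tested. In bulk RNA fewer cells of a type and less RNA per cell cannot be told apart. The labels do not tell whether litters were shared, so p-values measure the spread between these libraries.

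Eif2s1, the α subunit, was the member with the lowest ratio of heterozygous to wild-type expression. Values are CPM after scaling with TMM factors, which allow for differences in library composition. Eif2s1 was at 28.4 CPM in W32, 28.8 in W33, 32.8 in W76 and 30.1 in W90, while 20.5, 22.3, 20.8 and 25.1 CPM were found in H11, H12, H15 and H75. The groups did not overlap, and H75 came nearest to the wild-type libraries. Over all genes 2.32% had every heterozygous library below every wild-type library, and 4.38% had no overlap in either direction. The group means were 30.0 ± 2.0 and 22.2 ± 2.12 CPM (wild type and heterozygote, SD, n = 4 each). The log2 fold change was -0.44 (SE 0.095), with a 95% interval from -0.65 to -0.23, which is 0.637 to 0.854 of the wild-type level. Permuting the group labels of the log2 CPM values (exact permutation test, two-sided) gave p = 0.0286, the smallest that 4 against 4 libraries can give.

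Over all 14261 genes, edgeR's quasi-likelihood test called 0 of the 10 members at an adjusted p under 0.05, as it called 0% of all genes. Eif2s1 was the 1 member with an unadjusted p under 0.05, where 9.34% of all genes had one, 4.44% as lower and 4.9% as higher. Its adjusted p was 0.315 (edgeR). DESeq2 called Eif2s1 and no other member (adjusted p = 0.0159), and limma-voom called 0. DESeq2 called 1.12% of all genes, 0.447% as lower. In the authors' deposited table Eif2s1 has a log2 fold change of -0.44 and an adjusted p of 0.0208, and it is not among the genes marked significant there.

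**Figure D1:**
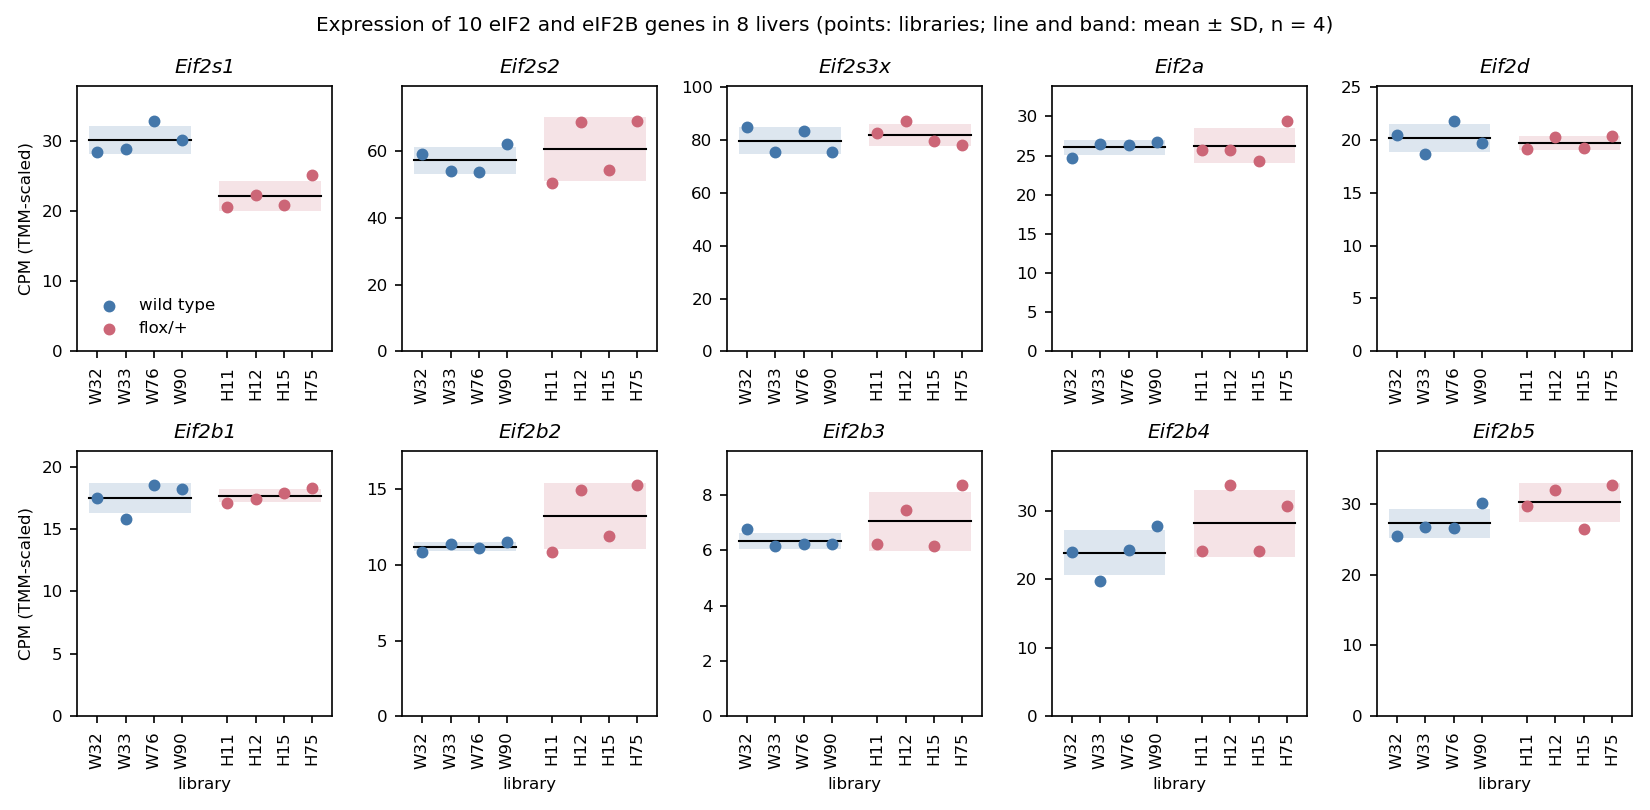
Each panel plots 1 gene, with TMM-scaled CPM on an axis from 0 against the 8 libraries; points are libraries, and the line and band are the mean ± SD of 4. Eif2s1 is the panel where the groups are apart, at 28.4 to 32.8 CPM in wild-type and 20.5 to 25.1 CPM in heterozygous libraries.

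Neither partner subunit passed the test. Eif2s2, the β subunit, which binds the GTPase-activating factor eIF5, was at 59.2, 54.1, 53.9 and 62.1 CPM in W32, W33, W76 and W90. It was at 50.5, 68.8, 54.3 and 69.2 CPM in H11, H12, H15 and H75. The heterozygous libraries thus lay on both sides of the wild-type range, with H12 and H75 above it and H11 below it. The estimate was a log2 fold change of 0.08 (SE 0.12), with a 95% interval from -0.18 to 0.35.

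Eif2s3x, the X-linked gene of the γ subunit, which binds the GTP and the tRNA, was at 84.9, 75.7, 83.4 and 75.5 CPM in W32, W33, W76 and W90. In H11, H12, H15 and H75 it was at 82.8, 87.4, 79.7 and 78.1 CPM. The groups overlapped, with 1 heterozygous library above the wild-type range. For Eif2s3x the log2 fold change was 0.04 (SE 0.081), with a 95% interval from -0.14 to 0.22. Neither interval for a partner subunit reaches the -0.44 of Eif2s1.

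The γ subunit has a second gene in male mice, Eif2s3y on the Y chromosome. The first 60 coding bases of the X and Y copies are shown because the copies differ at the DNA level throughout, which bears on whether reads can be assigned. Bases that differ are in capitals.
Eif2s3x: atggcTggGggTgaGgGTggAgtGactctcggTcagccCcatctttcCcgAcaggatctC
Eif2s3y: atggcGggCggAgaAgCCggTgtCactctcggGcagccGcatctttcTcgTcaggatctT
In this stretch 13 of 60 bases differed. Over the whole 1416 coding bases 86.3% were identical, and the longest identical run was 34 bases, while 97.9% of the encoded residues were identical.

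Eif2s3y was at 41.7, 38.9, 40.5 and 44.4 CPM in W32, W33, W76 and W90, and at 35.5, 41.8, 27.0 and 39.6 CPM in H11, H12, H15 and H75. H15 had the lowest value and the groups overlapped on this scale. With library totals alone they did not overlap, at 40.2 to 45.8 CPM in wild-type and 28.7 to 38.0 CPM in heterozygous libraries. As TPM (transcripts per 1e+06, from counts and gene length) they were at 36.2 to 41.5 and 26.6 to 32.4. Totals alone also moved the typical gene down, to a median of -0.08 (log2, heterozygous over wild type) against 0.01 with TMM. How often genes separate the groups by totals or as TPM was not computed. The part of this shift in the separation was not tested. The summed levels of Xist and 4 Y-linked genes, Eif2s3y among them, were 115 to 134 CPM and 90.1 to 109 CPM by totals. The Y copy gave 34.2 ± 2.01% of the summed reads of both copies in wild-type and 30.3 ± 3.66% in heterozygous livers (SD, n = 4 each). The sum was 121 ± 5.24 CPM in wild-type livers and 118 ± 9.21 CPM in heterozygotes, a difference smaller than the SD of either group. This too depended on scaling. The sum was 125 ± 6.32 and 114 ± 6.29 CPM with library totals alone, with overlap, and 76.9 ± 5.05 and 65.5 ± 4.64 TPM (SD, n = 4 each), without overlap.

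Ratios of counts inside a library do not depend on how libraries are scaled, and they set the α subunit against each of the other 9 genes directly. The ratio of Eif2s1 to Eif2s2 reads was 0.480, 0.533, 0.610 and 0.485 in W32, W33, W76 and W90, and 0.407, 0.324, 0.384 and 0.364 in H11, H12, H15 and H75. The groups did not overlap. The mean log2 ratio was lower by 0.51 in heterozygous livers, 0.702 of the wild-type ratio (exact two-sided permutation p = 0.0286, also when adjusted over the 2 ratios tested).

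The ratio of Eif2s1 to Eif2s3x reads was 0.335, 0.381, 0.395 and 0.400 in W32, W33, W76 and W90. It was 0.248, 0.255, 0.262 and 0.323 in H11, H12, H15 and H75, with H75 and W32 nearest to each other. The heterozygous ratio was 0.718 of the wild-type ratio (exact two-sided permutation p = 0.0286, adjusted over 2 ratios 0.0286), and p was 0.0571 without any 1 of the wild-type libraries. The 7 other ratios, which were not tested, were also lower in every heterozygous library than in any wild-type library. They ranged from 0.629 of the wild-type ratio against Eif2b4 to 0.752 against Eif2d. All 9 ratios share the reads of Eif2s1 and are not independent of each other. Eif2s1 separates the groups by itself, so their separation is not a result about the 9 other genes. The share of all genes whose ratio to Eif2s1 separates the groups was not computed.

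**Figure D2:**
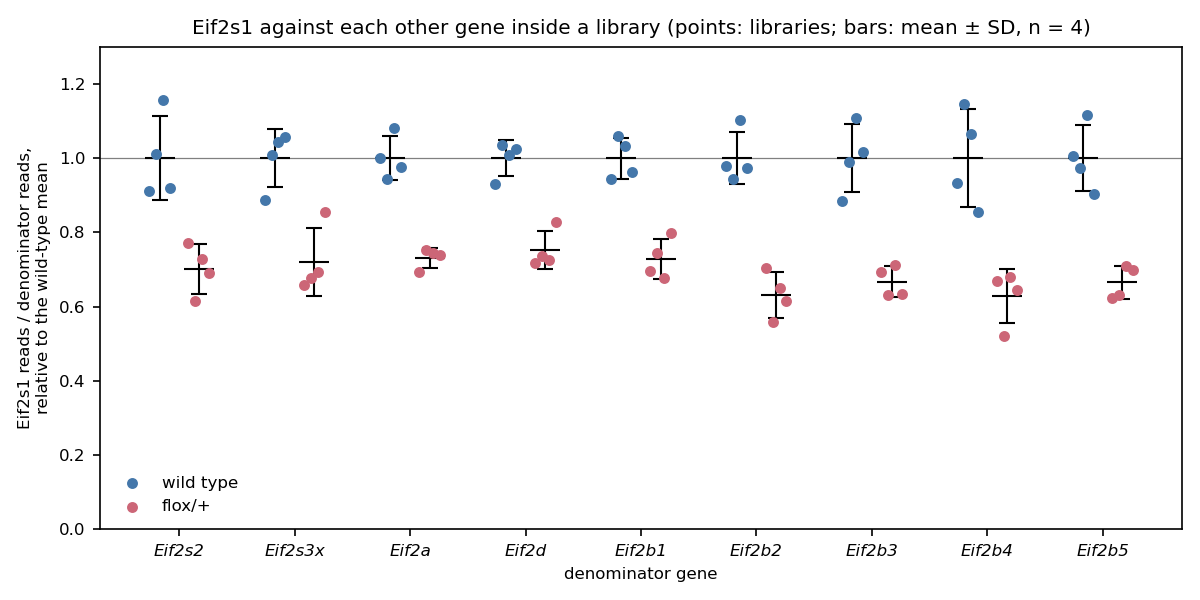
The plot gives, for each of 9 denominator genes, the Eif2s1 reads divided by the reads of that gene in the same library, relative to the wild-type mean, on an axis from 0; points are libraries and bars are mean ± SD of 4. The heterozygous points lie below the wild-type points in all 9 columns, with fold ratios of 0.629 to 0.752. All 9 columns share the Eif2s1 reads.

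The 95% intervals of Eif2a and Eif2d both included 0 and stayed within 0.22 of it. Eif2a, a factor that can bring initiator tRNA to the ribosome without GTP, was at 24.7, 26.5, 26.3 and 26.7 CPM in W32, W33, W76 and W90 and at 25.7, 25.7, 24.3 and 29.5 CPM in H11, H12, H15 and H75. H75 had the highest and H15 the lowest value, so the heterozygous libraries enclosed the wild-type range. Its log2 fold change was 0.01 (SE 0.086, 95% interval from -0.18 to 0.21). Eif2d, which delivers tRNA to and helps to recycle the small ribosomal subunit, averaged 20.2 ± 1.34 and 19.7 ± 0.653 CPM (SD, n = 4 each). Its libraries ran from 18.6 to 21.8 CPM in wild type and from 19.1 to 20.3 CPM in heterozygotes, inside the wild-type range. Eif2d had a log2 fold change of -0.03 (SE 0.085, 95% interval from -0.22 to 0.16). Expression of the gene whose symbol stands in the genotype field therefore did not separate the groups.

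With TMM scaling all 5 eIF2B genes had a higher mean in heterozygous livers, 4 of them by 0.15 to 0.24 on the log2 scale. None passed the test in edgeR (0 with an unadjusted p under 0.05) or DESeq2. In the same fit 51.1% of all genes had a log2 fold change above 0. The median over the 5 genes was 0.15, against 0.01 over all genes tested. With library totals alone the median was 0.06, against -0.08 over all genes, with 4 of the 5 above 0 and Eif2b1 at -0.07. As TPM the heterozygous mean was lower for Eif2b1 (15.03 in wild type and 13.8), Eif2b3 (7.08 and 7.03) and Eif2b5 (18.45 and 18.42). It was higher for Eif2b2 (12.1 and 12.8) and Eif2b4 (23.4 and 24.7). The direction of the eIF2B genes thus depended on the scale. Eif2b3 and Eif2b5 encode the γ and ε subunits, the catalytic pair. Eif2b1, Eif2b2 and Eif2b4 encode the α, β and δ subunits, the regulatory core that senses phosphorylated eIF2α. Inherited mutations in the human genes of all these subunits cause a leukodystrophy, vanishing white matter disease.

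In the regulatory core, Eif2b1 was at 15.8 to 18.5 CPM in wild-type and 17.1 to 18.3 CPM in heterozygous libraries, with a log2 fold change of 0.01 (SE 0.087, 95% interval from -0.18 to 0.21). Eif2b2 was at 10.8, 11.4, 11.1 and 11.5 CPM in W32, W33, W76 and W90, and at 10.9, 14.95, 11.9 and 15.3 CPM in H11, H12, H15 and H75. H12 and H75 stood well above the rest, H15 was just above the wild-type range and H11 was inside it. The log2 fold change was 0.24 (SE 0.13, 95% interval from -0.04 to 0.52, adjusted p = 0.593, edgeR).

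Eif2b4 was at 23.98, 19.8, 24.2 and 27.8 CPM in W32, W33, W76 and W90, and at 24.1, 33.8, 24.1 and 30.8 CPM in H11, H12, H15 and H75. Again H12 and H75 were above every wild-type library, and H11 and H15 were inside the wild-type range. The log2 fold change was 0.24 (SE 0.14, 95% interval from -0.08 to 0.55, adjusted p = 0.645, edgeR). Exons of Eif2b4 overlap those of Snx17 on the other strand, so part of its reads may belong to that gene.

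In the catalytic pair, Eif2b3 was at 6.78, 6.15, 6.24 and 6.24 CPM in W32, W33, W76 and W90, and at 6.23, 7.47, 6.16 and 8.36 CPM in H11, H12, H15 and H75. Eif2b5, which holds the exchange activity, was at 25.5, 26.8, 26.6 and 30.1 CPM in W32, W33, W76 and W90, and at 29.7, 32.01, 26.5 and 32.6 CPM in H11, H12, H15 and H75. For both genes H12 and H75 were above the wild-type range and the other heterozygous libraries inside it. Without H75 the log2 fold change of Eif2b3 was 0.06. With all libraries both log2 fold changes were 0.15, with SE 0.14 and 95% interval from -0.15 to 0.45 for Eif2b3, and SE 0.096 and interval from -0.06 to 0.36 for Eif2b5.

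**Figure D3:**
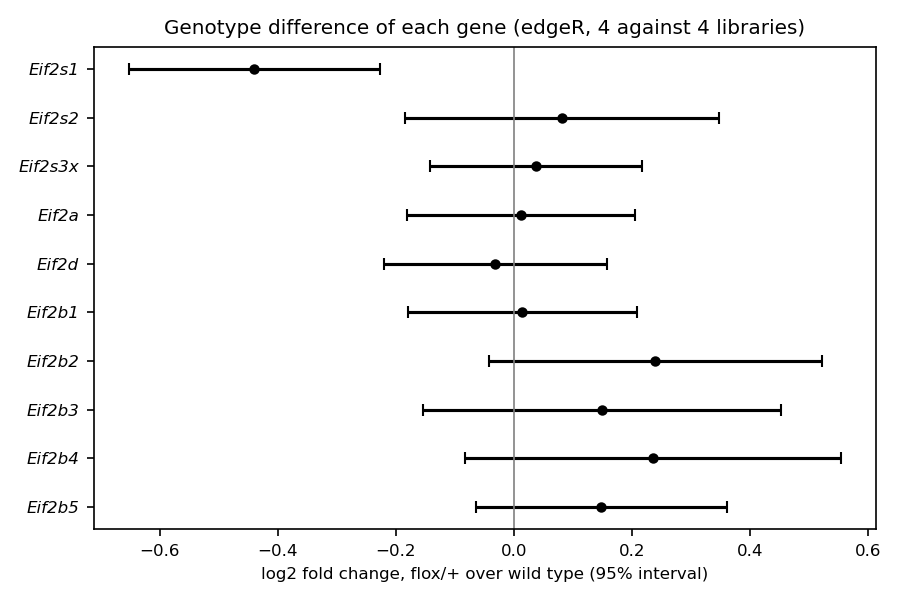
Points are the log2 fold change of heterozygous over wild-type livers for each of the 10 genes from edgeR, 4 against 4 libraries, and bars are the 95% interval; the grey line marks 0. The interval of Eif2s1, from -0.65 to -0.23, lies below 0, and the other 9 intervals include 0.

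The heterozygous libraries differed among themselves in how many members they had above the wild-type range. Of the 9 genes other than Eif2s1, 6 were above all wild-type libraries in H12 and 6 in H75, against 0 in H11 and 1 in H15. Over all genes tested, 28.6% were above all wild-type libraries in H12, 29.1% in H75, 20.8% in H11 and 20.5% in H15. These counts depend on scaling. The TMM factors of H12 and H75 were 0.909 and 0.900, against 0.9997 to 1.062 in the other libraries, and with library totals alone 2 of the 9 genes were above all wild-type libraries in each of H12, H15 and H75, and 0 in H11. On that scale H12 and H75 did not stand apart from H15 in this count. Eif2b2 was 1 of the genes in all 3 libraries, at 13.6, 12.7 and 13.7 CPM, against 11.1 to 11.9 CPM in wild type. Genes of the 9 that lay below every wild-type library by totals numbered 3 for H12, 2 each for H75 and H11, and 1 for H15. With TMM they numbered 1 each for H15 and H11, and 0 for H75 and H12. How many of all genes lay above or below by totals was not computed.

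Ratios to Eif2b1 inside a library, which need no scaling, were highest in H12 and H75. The ratio of Eif2b2 to Eif2b1 reads was 0.602 to 0.723 over the wild-type libraries, and 0.638, 0.859, 0.669 and 0.834 in H11, H12, H15 and H75. The ratio of Eif2b4 to Eif2b1 was 1.25 to 1.52 in wild-type libraries and 1.41, 1.93, 1.35 and 1.68 in H11, H12, H15 and H75. For Eif2b3 it was 0.340 to 0.392 in wild-type libraries and 0.367, 0.432, 0.348 and 0.459. Eif2b5 to Eif2b1 was 1.44 to 1.69 in wild-type libraries, and 1.73, 1.84, 1.48 and 1.78 in H11, H12, H15 and H75. In all 4 ratios H12 and H75 were above every wild-type library, and H11 was above them for Eif2b5 alone. These ratios share the reads of Eif2b1, the eIF2B gene with the lowest log2 fold change (0.01), and were not tested. The share of all genes whose ratio to Eif2b1 lay above wild type in H12 and H75 was not computed. A ratio does not tell a higher numerator from a lower denominator. By library totals Eif2b1 was at 15.8 CPM in H12 and 16.46 CPM in H75, against 16.35 to 18.8 CPM in wild type. With TMM it was at 17.4 and 18.3 CPM, inside the wild-type range.

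**Figure D4:**
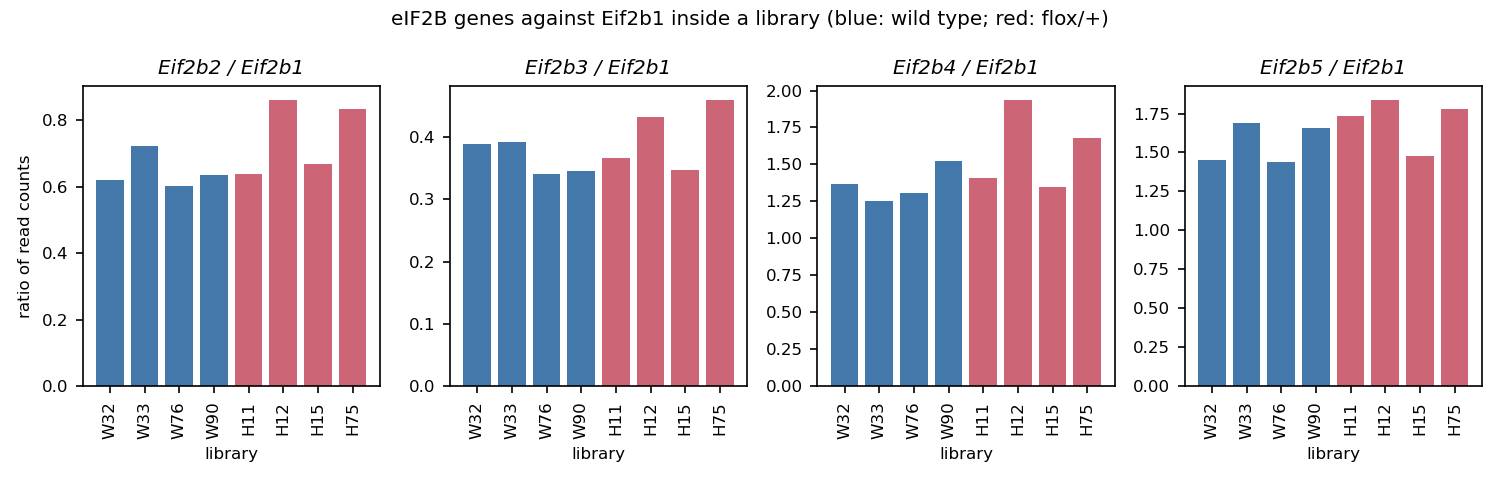
Bars are the ratio of read counts of Eif2b2, Eif2b3, Eif2b4 and Eif2b5 to those of Eif2b1 in each of the 8 libraries, on axes from 0, with wild type in blue and heterozygotes in red. H12 and H75 have the highest bars in each panel, for example 0.859 and 0.834 for Eif2b2 against at most 0.723 in wild type.

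Several pairs of members varied together. Over the 8 libraries, Pearson r of log2 CPM was 0.87 between Eif2b2 and Eif2b3 and 0.85 between Eif2s2 and Eif2b3, with Spearman rho of 0.33 and 0.69. Eif2s1 had r between -0.34 (Eif2b5) and 0.48 (Eif2d) with the other 9 genes. These are descriptions over 8 points that share genotype and scaling.

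Compared per length, the α subunit was the least abundant transcript of its complex. Levels between genes are given as TPM, computed from the counts and the deposited gene lengths. In wild-type livers Eif2s2 was at 39.1 ± 3.74 TPM, Eif2s3x at 37.9 ± 3.24 TPM and Eif2s1 at 15.2 ± 0.459 TPM (SD, n = 4 each). Eif2s2 and Eif2s3x overlapped each other, and Eif2s1 was below both in every library. In heterozygous livers the 3 genes were at 37.0 ± 2.50, 35.3 ± 4.48 and 10.1 ± 0.716 TPM.

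Among all 10 genes in wild-type livers the order of mean TPM was Eif2s2, Eif2s3x, Eif2b4 (23.4 ± 3.17), Eif2a (19.6 ± 0.562), Eif2b5 (18.5 ± 1.28), Eif2s1, Eif2b1 (15.03 ± 0.968), Eif2b2 (12.1 ± 0.488), Eif2d (10.1 ± 0.643) and Eif2b3 (7.08 ± 0.610). Neighbours whose libraries overlapped were Eif2s2 and Eif2s3x, Eif2b4 and Eif2a, Eif2a and Eif2b5, and Eif2s1 and Eif2b1. In heterozygous livers Eif2s1 moved from rank 6 to rank 8, below Eif2b1 (13.8 ± 1.75) and Eif2b2 (12.8 ± 0.956) without overlap with either. It overlapped with Eif2d (8.91 ± 0.895). On the TPM scale the mean of Eif2b4 was 24.7 ± 1.79 and that of Eif2b5 18.4 ± 0.886 in heterozygous livers, so their differences from wild type were smaller than the SD. The order was the same with the longest coding transcript as the length, where Eif2b3 was at 2.93 TPM in wild type. Among the members the length changed for Eif2d, Eif2b3 and Eif2b4 alone. It thus could not change the order of the 3 eIF2 subunit genes.

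**Figure D5:**
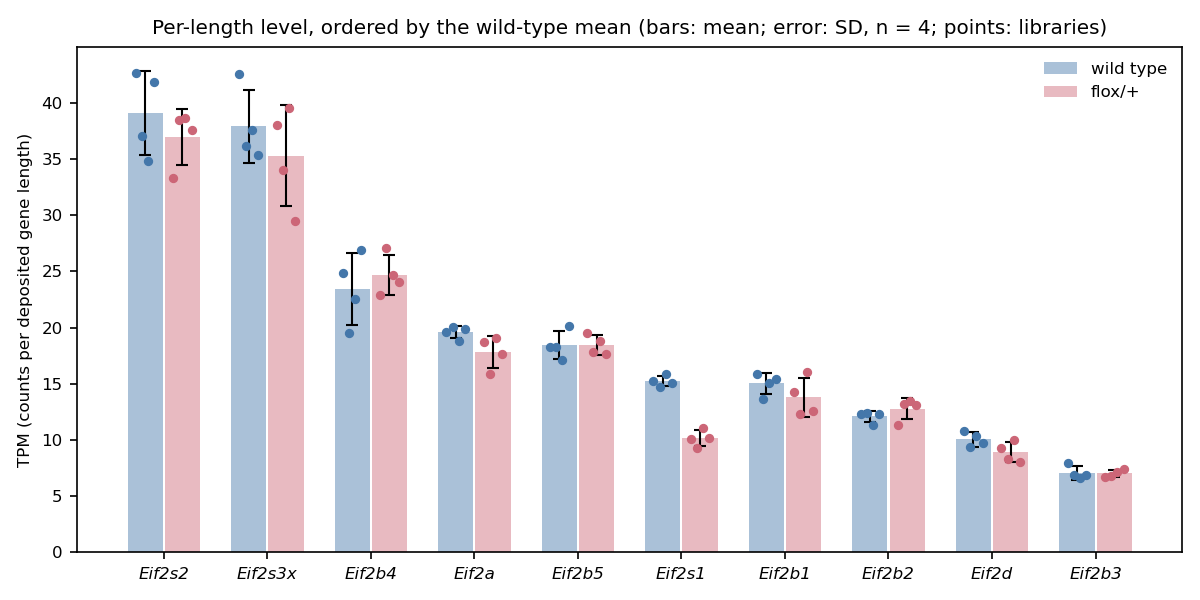
Bars are the mean TPM of each gene on an axis from 0, in the order of the wild-type mean, with SD (n = 4) and the libraries as points. Eif2s1 is at 15.2 TPM in wild type and 10.1 TPM in heterozygotes, while Eif2s2 and Eif2s3x are at 35.3 to 39.1 TPM in both.

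The 10 genes lie on 8 chromosomes. Eif2s1 is at chr12:78861819-78887010 and Eif2b2 at chr12:85219481-85226628, both on the plus strand of GRCm38. Eif2s2 is at chr2:154871410-154892935 on the minus strand, and Eif2s3x at chrX:94188707-94212862 on the minus strand. Eif2b1 (chr5:124570213-124579131, minus) and Eif2b4 (chr5:31187558-31193430, minus) share chromosome 5. Eif2b3 is at chr4:117019402-117087306 and Eif2b5 at chr16:20498817-20509323, both plus. Eif2a (chr3:58525821-58557501, plus) has exons that overlap Serp1, and Eif2d (chr1:131153181-131187658, plus) has exons that overlap Rassf5, each on the other strand. All 10 are protein-coding in GENCODE.

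Annotated copies elsewhere in the genome were found for the 3 eIF2 subunit genes and for none of the other 7 members. Of the stretches of 50 bases in the longest coding transcript, 36.2% of those of Eif2s3x, 27.8% of Eif2s2 and 8.49% of Eif2s1 also occurred in transcripts of other genes. The 5 copies of Eif2s1 had 0 counts in every library. Gm9892, the copy of Eif2s2, had at most 0.699% of the counts of its parent, and Eif2s3x-ps1 at most 0.462%. Eif2s3y shared no such stretch with Eif2s3x or another gene. The sources used here do not say how reads were divided between a gene and its copies. With the reads of the copies given back to the parents, an alternative chosen after seeing the data, Eif2s2 and Eif2s3x had log2 fold changes of 0.08 and 0.04, and Eif2s1 could not change.

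The promoters of the members were rich in CpG. RefSeq promoters of GRCm38.p6, from 250 bases before to 50 bases after the start, were found for 9 of the 10 genes. They held 9 to 37 CpG dinucleotides with a median of 22, against a median of 7 over 32851 promoters, and their median GC content was 57% against 52.7%. On either strand, the SP1 core GGGCGG was in 7 of 9 promoters, against 35.7% of all. CCAAT was in 3 of 9, those of Eif2b2, Eif2b4 and Eif2b5, against 37.4% of all. The ETS motif CCGGAAGT was in those of Eif2b2 and Eif2b4 (3.89% of all), and the NRF1 core GCATGCGC in that of Eif2s1 (2.71% of all), which also held TATAAA (13.6% of all). The ATF4 and C/EBP composite TGATGNAA was in that of Eif2s3x (3.97% of all), as was the YY1 motif AAGATGG (6.34% of all). These are matches of letters only, and the motifs were chosen after the promoters had been seen.

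The 250 bases before the start are shown for Eif2b2 and Eif2b5, whose windows hold no annotated exon. With TMM scaling both genes were above the wild-type range in H12 and H75. By library totals Eif2b5 was at 29.1 and 29.3 CPM there, inside the wild-type range of 26.6 to 31.1 CPM. Matches to the motifs named above are in capitals. The Eif2b2 window is chr12:85219231-85219480 and the Eif2b5 window chr16:20498567-20498816, both plus strand of GRCm38.p6.
Eif2b2: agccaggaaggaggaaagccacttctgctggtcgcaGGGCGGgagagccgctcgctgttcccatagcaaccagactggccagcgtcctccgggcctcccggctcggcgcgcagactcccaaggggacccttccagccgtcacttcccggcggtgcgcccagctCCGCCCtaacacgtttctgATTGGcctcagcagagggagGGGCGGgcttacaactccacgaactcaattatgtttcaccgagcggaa
Eif2b5: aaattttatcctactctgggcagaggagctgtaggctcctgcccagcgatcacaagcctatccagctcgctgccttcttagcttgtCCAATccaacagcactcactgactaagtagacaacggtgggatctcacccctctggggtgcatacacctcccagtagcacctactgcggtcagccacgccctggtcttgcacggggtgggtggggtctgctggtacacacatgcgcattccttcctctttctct
The Eif2b2 window holds SP1 cores on both strands and CCAAT on the minus strand, and the Eif2b5 window holds CCAAT on the plus strand and no SP1 core.

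The rest of the initiation pathway was read from lists of genes that act beside eIF2. None of the genes of these lists passed edgeR's test over all genes. DESeq2 called 2 of them, where it called 1.12% of all genes. They were Eif4ebp3, 1 of 14 cap-binding genes, and Ppp1r15a, 1 of 8 phosphatase genes and regulators. Of 6 genes listed for ternary complex assembly, recycling and related steps (among them Eif5 and Eif5b), 0 had an unadjusted p under 0.05. Their median log2 fold change was 0.04. Of 18 genes of start codon scanning, which are eIF1, eIF1A and eIF3 genes, 17 had a higher mean in heterozygous livers and 0 an unadjusted p under 0.05. Eif3j1 and Eif3j2 among them are near copies, whose reads may be divided between them. Their median was 0.16, against 0.01 over all genes. With library totals alone 12 of the 18 were above 0 and the median was 0.06, against -0.08 over all genes. In the 6 genes of alternative tRNA delivery and recycling, which include Eif2a and Eif2d, the log2 fold changes ran from -0.06 to 0.09.

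Of 14 cap-binding genes, 2 had an unadjusted p under 0.05 as higher, where 4.9% of all genes had one. Eif4ebp3, a repressor of the cap-binding protein eIF4E, was at 5.42, 14, 14.3 and 15.3 CPM in W32, W33, W76 and W90 and at 55.1, 31.5, 24.3 and 37.4 CPM in H11, H12, H15 and H75. All heterozygous libraries were above all wild-type libraries, as for 2.06% of genes, and the log2 fold change was 1.60 (SE 0.33, adjusted p = 0.282, edgeR). Its exons overlap AC115631.1 on the same strand, so reads may be divided between them. Eif4ebp1, a repressor of the same kind, averaged 22.8 ± 4.16 and 31.3 ± 7.14 CPM (SD, n = 4 each), with overlap and a log2 fold change of 0.46 (adjusted p = 0.482, edgeR).

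Of the 4 eIF2α kinase genes 1 had an unadjusted p under 0.05, as lower, where 4.44% of all genes had one. It was Eif2ak2, which encodes the double-stranded RNA sensor PKR (log2 fold change -0.30, adjusted p = 0.510, edgeR), and its groups overlapped. Eif2ak1 had an unadjusted p of 0.053 (edgeR) and a log2 fold change of 0.18. Its groups did not overlap, at 39.4 to 41.1 CPM in wild-type and 42.5 to 50.4 CPM in heterozygous libraries, as for 2.06% of genes that were higher. Eif2ak4 (log2 fold change -0.36) and Eif2ak3 (0.14) had groups that overlapped. Of 8 phosphatase genes and regulators 1 had an unadjusted p under 0.05, as higher, where 4.9% of all genes had one. It was Ppp1r15a, which brings the phosphatase to eIF2α (log2 fold change 0.66, adjusted p = 0.354, edgeR). The groups of Ppp1r15a did not overlap, as for 2.06% of genes that were higher. Those of the phosphatase gene Ppp1cb did not overlap either, as for 2.32% of genes that were lower (log2 fold change -0.08). Exons of Eif2ak2 and of Ppp1r15a overlap an annotated gene on the other strand.

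The genes whose pattern over the 8 libraries was most like that of Eif2s1 were Fam120b, Txnl4b, Zfp950, Cfd and Adss, among 11256 named genes with a mean of at least 1 CPM. Pearson r of log2 CPM was 0.975, 0.961, 0.956, 0.952 and 0.944. In all 5 genes every heterozygous library was below every wild-type library, as in 2.32% of all genes. They were picked for likeness to Eif2s1, which separates the groups, so this largely follows from the choice. Fam120b averaged 32.4 ± 1.03 and 29.8 ± 0.964 CPM, and Txnl4b, a splicing-related thioredoxin-like gene, 8.52 ± 0.193 and 6.96 ± 0.642 CPM (SD, n = 4 each). Their log2 fold changes were -0.12 and -0.29, smaller than that of Eif2s1. Zfp950 had a log2 fold change of -0.38, and Adss, an adenylosuccinate synthetase of purine synthesis, of -0.13. Cfd, complement factor D, a gene strongly expressed in fat cells, had -2.85. The part of fat cells in it was not tested, and the adipocyte marker sum given above was mostly Cidec. Exons of Fam120b overlap Gm49668 on the other strand. With r above 0.8 there were 91 such genes, so the likeness is a description of 8 libraries.

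The spread between libraries was, at the median, smaller for the members than for genes of a like level. The median coefficient of variation of the 10 genes was 6.67% among wild-type and 9.37% among heterozygous libraries. For the 7150 genes within the same range of mean CPM it was 9.83% and 13%. Not every member was below these values. Eif2b4 was at 13.7% in wild type and 17.2% in heterozygotes, and Eif2s2, Eif2b2 and Eif2b3 were at 16.0%, 16.4% and 15% in heterozygotes.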

How the data were processed

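RNA of 4 wild-type and 4 heterozygous livers was analysed. Per the submitters' processing notes, fastp 0.19.5, Bowtie2 2.2.9, GATK 3.8, SAMtools 1.9 and build mm10 (GRCm38) were used, with no role given. The sources used here do not give the counting program, its annotation or its use of strand. Estimated counts, not normalized, make up the authors' deposited count table, and 90.0% of its values are whole. Of its rows 541 are unannotated loci (0.431 to 0.977% of a library). The authors' deposited table gives a fold ratio, log2 fold change, p-value and gene length per gene, per the file headers.

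Counts were rounded, filtered with filterByExpr (14261 genes left), scaled with TMM and tested with edgeR 4.0.16 (quasi-likelihood F-test, default settings, group as the only term, Benjamini-Hochberg adjustment) in R 4.3.3. A standard error is the log2 fold change divided by the square root of F. Ratios had 2 reads added to each count and were compared by permuting group labels (exact, two-sided, 70 assignments), raw and adjusted over 2 ratios. The edgeR script was tested on simulated data. DESeq2 1.42.0 and limma-voom 3.58.1 were alternatives, with other scalings and filters and each library left out in turn. Sequences were read with Biopython 1.88 from GENCODE mouse M21 and RefSeq.

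The members, lists and tests were chosen with earlier results of these data known. Named genes are the members, Eif2s3y, up to 3 genes a pathway list with an unadjusted p under 0.05, and the 5 genes with the highest Pearson r with Eif2s1. Symbols of predicted gene models were left out of the last. The other eIF2α kinase genes and Ppp1cb were named after their values had been seen.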

Additional observations from a re-analysis of the deposited data

Results flagged for a closer look

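Of 24 groups of 4 libraries checked for a library far from the others, 1 stood out, and chance gives about 1 in 20. In wild-type livers Eif2b3 was at 6.78 CPM in W32, against 6.15, 6.24 and 6.24 CPM in the others, a gap of 0.846 of the whole range. The range itself was small, and 2 heterozygous libraries (H12 and H75) lay above W32.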

How the results depend on the processing

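Eif2s1 kept its direction under all 20 alternatives, 1 of which (reads of copies added) could not move it, with a log2 fold change from -0.53 to -0.39 (adjusted p 0.0159 to 0.633). It passed with DESeq2 (-0.44, 1 member called) and with DESeq2 without H15 (-0.41, adjusted p = 0.0289, 1 member called, chosen after seeing the data). Leaving out 1 library gave -0.51 to -0.39 with 0 members called. Without H15 edgeR gave an adjusted p of 0.0966. The ratio to Eif2s2 differed by -0.56 to -0.44 and that to Eif2s3x by -0.56 to -0.44 (log2) with 1 library left out. The number of genes called was 0 to 252 with 1 library left out (2 without W32, 252 without H15), 18 with no filter on low counts, 150 with DESeq2, 1 with the newer quasi-likelihood method, 1 without unannotated loci and 778 with DESeq2 without H15. Genes near 0 changed sign. Library totals alone, which moved the median of all genes to -0.08, gave -0.018 for Eif2s2, -0.048 for Eif2s3x, -0.078 for Eif2a and -0.071 for Eif2b1. Upper quartile scaling gave -0.0034 for Eif2a. With 1 library left out, Eif2a ranged from -0.047 (without H75, and -0.013 without W32) to 0.049, Eif2b1 from -0.029 (without W33, and -0.0030 without H75) to 0.044, and Eif2d from -0.065 to 0.011 (without W76). For these changes the cause was not tested. Eif2b2, Eif2b3, Eif2b4 and Eif2b5 stayed above 0 in all settings, from 0.05 to 0.32, and none passed. None of these settings used TPM. No paired analysis was possible because the columns of the count table carry no replicate number of the labels.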
